A study of Schizosaccharomyces pombe with 16 samples.

Results

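The GFP-TAP mock immunoprecipitation (IP) measured which RNAs came down with a tagged protein that is not expected to bind RNA. Its libraries were chosen by the bait and fraction named in the sample labels: 3 GFP IP libraries and their 3 total RNA inputs, paired by experiments 1 to 3, which are 6 of the 16 libraries of the series. The cells were fission yeast, Schizosaccharomyces pombe, of strain FR1424, in which a construct of the nmt1 promoter, gfp-TAP, the nmt1 terminator and ura4+ replaces leu1 in a ura4-D18, h+ background. The strain of the Zfs1-TAP IP, used below for comparison, is FR1401, which is h- and carries zfs1-TAP::kanMX6 at the zfs1 locus. Both strains were harvested while growing exponentially at 25°C in the minimal medium EMM, with no other agent. GFP-TAP was therefore driven by the nmt1 promoter at leu1 and Zfs1-TAP came from the zfs1 locus, and each bait is represented by 1 strain.

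In such an IP the TAP tag, which holds Protein A, is caught by an antibody on magnetic beads, the beads are washed, and the RNA that stays is sequenced. RNA in a mock IP can come down with the beads, the antibody, the tag or with large complexes that stay in the extract, and RNAs can be lost when their compartment or particle is left behind. Ribosomal RNA, the structured RNAs of stable particles, messenger RNAs and the RNAs made inside mitochondria sit in different complexes, so the classes are described separately. The bead RNA was extracted with a column kit in the study's methods, whereas the labels give hot phenol for every library, so a difference between IP and input cannot be told apart from a difference in extraction.

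The values were normalized read counts for 7018 transcripts. They are relative to the library, so fewer molecules of an RNA and less RNA per particle cannot be told apart. The depth of sequencing is unknown from them, and their totals, given in units of 1e+06, were 8.04 to 14.1 in the inputs and 9.48 to 15.7 in the IPs. Experiment 1 stood apart: rRNA made up 34.7% of its input against 0.592% and 4.19% in the inputs of experiments 2 and 3, and 5.87% of its IP against 0.0878% and 0.0786%. Beside 659 transcripts at 0 in all 3 GFP IPs, 130 were listed at 0 in the IP of experiment 1 and 0 in those of experiments 2 and 3. In these 2 libraries low values stood in place of 0, with 668 and 937 transcripts above 0 and below 4 normalized counts against 264 in the IP of experiment 1. The labels do not say whether the experiments came from separate cultures. The p-values rest on a spread between these libraries taken over transcripts of similar level, not on each transcript's own spread.

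Structured RNAs gave large changes in both directions, and 6 of their sequences are shown here because the mock IP separated them, although they are of similar size. The first, 7SL, is the RNA scaffold of the signal recognition particle, which brings ribosomes that make secreted proteins to the endoplasmic reticulum. It came down strongly. Its capitals mark GGTTCGA, the core of the B box promoter element of tRNA genes. The next 2 are small nucleolar RNAs (snoRNAs) of the H/ACA kind, which guide pseudouridine formation, that were higher in the IP. The 2 after them are H/ACA snoRNAs that were lower. Their capitals mark the last ACA within 7 bases of the annotated end, the ACA box. The last is U1, a small nuclear RNA (snRNA) of the spliceosome, that was lower, with capitals on ATTTTTG, the kind of U-rich sequence on which Sm proteins assemble. Sequences are the sense strand, 5′ to 3′, of RefSeq assembly ASM294v3.

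srp7 (7SL), chromosome I, 4268662 to 4268916, plus strand: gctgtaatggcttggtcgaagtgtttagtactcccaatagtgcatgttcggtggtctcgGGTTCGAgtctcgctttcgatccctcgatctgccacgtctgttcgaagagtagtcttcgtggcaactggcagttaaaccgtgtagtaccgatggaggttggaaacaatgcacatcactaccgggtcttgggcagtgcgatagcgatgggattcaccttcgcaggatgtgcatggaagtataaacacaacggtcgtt
snR42, chromosome II, 1917406 to 1917613, plus strand: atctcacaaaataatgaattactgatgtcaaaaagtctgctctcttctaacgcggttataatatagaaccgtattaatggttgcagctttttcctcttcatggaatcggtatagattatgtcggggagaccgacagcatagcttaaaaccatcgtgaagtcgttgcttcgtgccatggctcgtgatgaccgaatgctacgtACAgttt
snR94, chromosome III, 923877 to 924086, plus strand: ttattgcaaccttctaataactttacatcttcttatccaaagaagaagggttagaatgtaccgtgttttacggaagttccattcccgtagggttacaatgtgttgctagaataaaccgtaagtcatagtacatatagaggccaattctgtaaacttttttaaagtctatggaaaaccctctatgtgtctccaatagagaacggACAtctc
snR98, chromosome I, 2330437 to 2330647, minus strand: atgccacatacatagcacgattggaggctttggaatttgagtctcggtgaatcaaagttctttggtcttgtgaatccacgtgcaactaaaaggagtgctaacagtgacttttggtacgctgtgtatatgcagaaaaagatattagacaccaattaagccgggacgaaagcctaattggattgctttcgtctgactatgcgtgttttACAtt
snR95, chromosome II, 1468185 to 1468406, minus strand: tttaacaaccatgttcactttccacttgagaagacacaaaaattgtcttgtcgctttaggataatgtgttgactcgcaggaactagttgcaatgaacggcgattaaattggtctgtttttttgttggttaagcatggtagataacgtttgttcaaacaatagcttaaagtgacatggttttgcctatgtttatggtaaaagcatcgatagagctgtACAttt
snu1 (U1), chromosome II, 3020205 to 3020353, plus strand: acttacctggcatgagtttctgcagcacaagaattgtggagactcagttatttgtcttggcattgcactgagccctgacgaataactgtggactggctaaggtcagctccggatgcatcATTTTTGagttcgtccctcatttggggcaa

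The letters ACA in the last 7 bases were in 4 of the 5 snoRNAs annotated as H/ACA that were higher and in 2 of the 2 that were lower, and in 588 of 6843 annotated transcripts (8.59%). The ACA letters were thus present on both sides. GGTTCGA was in 6.02% of all annotated transcripts and in 17.5% of the 565 that are at most 400 nt long, tRNAs among them. ATTTTTG was in 39.5% and 4.25% of them, and it was not in the annotated U2 and U4. All 3 motifs were searched on the sense strand only.

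For each of 5887 transcripts whose mean reached 1 CPM (the count relative to the library total, set to 1e+06), IP and input were compared as log2 of the normalized count + 1, with the experiment as a block, by limma with Benjamini-Hochberg adjustment. At an adjusted p under 0.05, 651 transcripts (11.1%) were higher and 430 (7.30%) were lower in the mock IP. All counts below are read against these percentages. The share of all transcripts whose IPs and inputs do not overlap is not given, so a lack of overlap below only describes the values. limma gave each transcript a standard error (SE) set by its level alone (infinite prior degrees of freedom), so the SE does not grow when a transcript's own experiments disagree. The SD over the 3 experiments is therefore given beside it. The SE was large at high levels, such as 1.66 for tdh1, the most abundant messenger, and few calls were made there. Of 111 protein-coding transcripts with a mean input of 1000 CPM and over, 3 were higher and 0 were lower. At 100 to 300 CPM the counts were 213 and 47 of 984. This limits the call shares of abundant classes, such as cytosolic ribosomal proteins and glycolysis. When each transcript's own spread entered without the trend on level, only 2 and 10 transcripts passed, and without the block 117 and 30. A version in which transcripts of unusual spread keep it kept 617 of the 651 and 361 of the 430. The balance also followed the scaling of the libraries: equal library totals moved the median of the fitted log2 ratio of all transcripts from -0.01 to -0.27 and gave 174 higher and 313 lower. Class medians are therefore given relative to the median of all transcripts tested, which a scaling leaves in place. That median was -0.33, 0.39 and 0.00 in experiments 1 to 3.

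**Figure D1:**
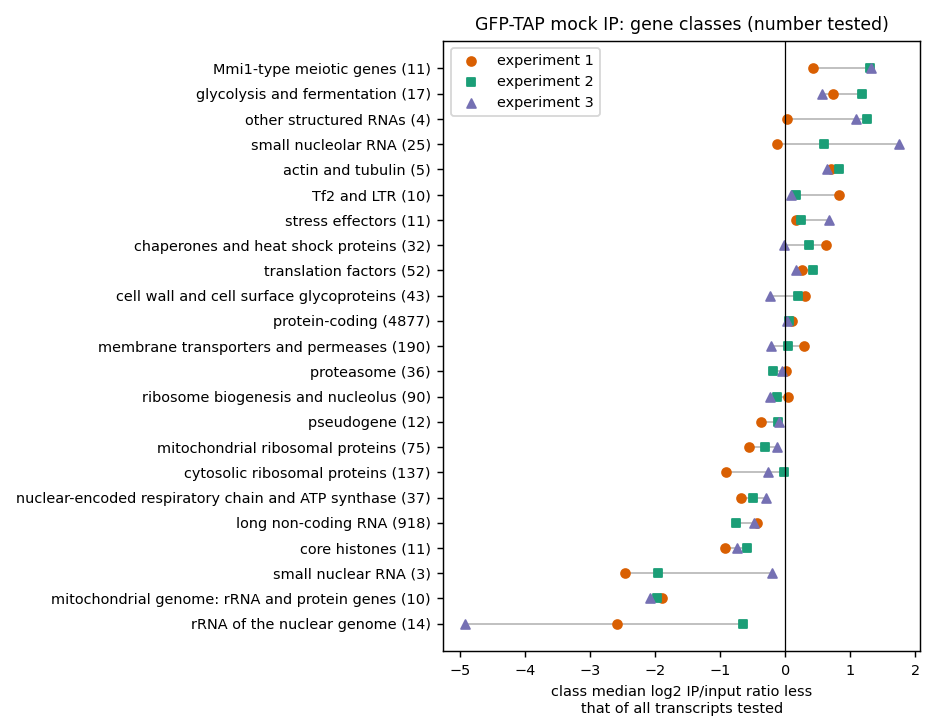
Each row is a gene class with its number of transcripts tested, and each symbol is the class median log2 IP/input ratio in 1 experiment less the median of all transcripts tested in that experiment. Grey lines join the lowest and the highest experiment. The mitochondrial genome sits between -2.08 and -1.89 in all 3 experiments, while glycolysis sits between 0.57 and 1.18.

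The normalized counts of 7SL were 25103, 1866 and 1391 in inputs 1 to 3 and 140502, 386506 and 105166 in the IPs. The lowest IP lay above the highest input. Its log2 ratio was 5.47 (SD 2.69, SE 0.59, n = 3, limma adjusted p = 5.53e-18), from 2.48 in experiment 1 to 7.69 in experiment 2. The 4 structured RNAs of this list, 7SL, telomerase RNA, RNase P RNA and RNase MRP RNA, together took 0.325%, 0.139% and 0.139% of the inputs and 1.37%, 2.62% and 1.34% of the IPs. Most of this IP share was 7SL, which alone had 12865, 24616 and 11093 CPM in the IPs.

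The telomerase RNA ter1, the template for chromosome ends, also rose, from 1309, 898 and 924 to 1990, 2637 and 1714 (log2 ratio from 0.60 to 1.55, SD 0.49, limma adjusted p = 0.00812). Its inputs and IPs did not overlap. The RNase MRP RNA mrp1, which takes part in pre-rRNA cleavage, went from 9213, 4283 and 4875 to 4035, 14120 and 12017. The RNase P RNA rrk1, the catalytic RNA of tRNA 5′ maturation, went from 10116, 4162 and 4472 to 2995, 8605 and 7668. Both were below their input in experiment 1 and above it in experiments 2 and 3, and neither passed the test (adjusted p = 0.256 and 0.974, limma).

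Of 25 snoRNA transcripts tested, 8 were higher (32.0%, against 11.1% of all transcripts) and 2 were lower. Their summed share of the library went from 0.343%, 0.240% and 0.222% in the inputs to 0.510%, 1.47% and 2.47% in the IPs. Relative to all transcripts, the class median rose above 0 in experiments 2 and 3 alone (-0.12, 0.60 and 1.75). Without experiments 1, 2 and 3 in turn, 12, 8 and 3 were higher. U3 and U17, which take part in pre-rRNA processing, were among those that were higher. The U3 RNA snu3, part of the complex that cuts the 5′ end of the rRNA precursor, had 12748, 4252 and 3251 normalized counts in the inputs and 11002, 112385 and 62024 in the IPs. The second U3 gene, snu32, had 9755, 2219 and 1662 in the inputs and 16527, 39887 and 20433 in the IPs. U3 thus changed little in experiment 1 and strongly in experiments 2 and 3. The annotated sequences of the 2 genes differ in GC content (33.2% and 42.7%). Whether the counting split reads between them was not tested, so their values are uncertain one by one. The U17 RNA snR30 went from 5959, 560 and 794 to 18627, 46137 and 60057 without overlap (log2 ratio 4.75, SD 2.69, limma adjusted p = 4.48e-34).

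The H/ACA RNA sno20 had the highest ratio of all non-coding RNAs named here, from 150, 5.98 and 7.45 in the inputs to 307, 9340 and 47373 in the IPs. Its log2 ratio ran from 1.03 to 12.45 (SD 6.09). Over 100% of its span sno20 lies opposite SPBC1921.04c, and the letters ACA were absent from its last 7 bases. When unusual spread was kept, its call was lost (adjusted p = 0.329), as were those of snR30 (0.219), snu3 (0.240) and snR42 (0.578). The guide RNA snR94 went from 415, 82.5 and 72.4 to 539, 341 and 680, and snR42 from 1857, 662 and 745 to 1026, 1926 and 9141. The first was higher in all 3 experiments and the second in experiments 2 and 3 only. The other 2 that were called, snR93 and snR3, had inputs of at most 55.1 and 0.576 normalized counts.

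In contrast, snR98 fell from 1642, 1138 and 1145 to 589, 445 and 585 (log2 ratio -1.27, SD 0.27, SE 0.31, limma adjusted p = 0.00102). The transcript lies within SPNCRNA.814 on the same strand, which was not called. The RNA snR95 fell from 2620, 2359 and 2760 to 1263, 778 and 1685 (log2 ratio -1.12, SD 0.45, limma adjusted p = 0.00303). For both, every IP lay below every input, and they were lower in each experiment.

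All 3 snRNAs tested were lower, and 0 were higher (0 also at an unadjusted p under 0.05, limma). U1 (snu1) went from 1454, 334 and 188 to 153, 263 and 62.6, U2 (snu2) from 8921, 4149 and 3028 to 2117, 1395 and 2628, and U4 (snu4) from 2436, 569 and 361 to 350, 108 and 347. U4 was almost level in experiment 3, with a log2 ratio of -0.05, and U1 was near level in experiment 2, with -0.34. The log2 ratios were -1.72, -1.28 and -1.75 (SD 1.45, 0.97 and 1.48). Without experiment 1 none of the 3 passed. RNAs shorter than 90 nt gave no values: all 171 nuclear and 25 mitochondrial tRNAs were listed at 0 in the 6 libraries.

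**Figure D2:**
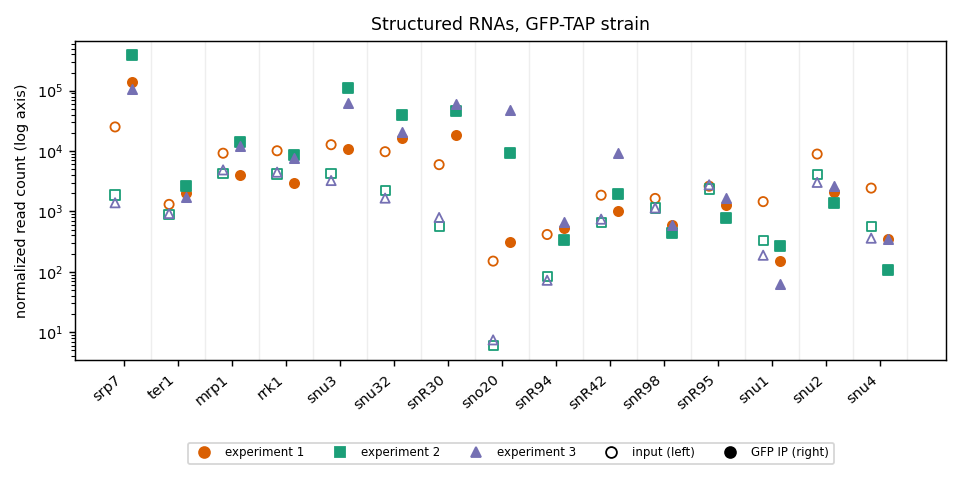
Normalized read counts on a log axis for 15 structured RNAs in the 3 inputs (open symbols, left) and the 3 GFP IPs (filled symbols, right). In 7SL every IP is above every input, whereas snR98 and snR95 lie below their inputs in every experiment.

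The transcripts of the mitochondrial genome were lower by a similar size in all 3 experiments. They are made and translated inside the organelle. Of 10 tested rRNA and protein genes, 9 were lower (against 7.30% of all transcripts) and 0 were higher (0 also at an unadjusted p under 0.05, limma). In all 3 experiments, 994 of the 4877 protein-coding transcripts tested had log2 ratios below 0, as did 8 of these 10. Their median log2 ratio relative to all transcripts was -1.89, -1.97 and -2.08. Together they held 3.16%, 3.20% and 3.60% of the inputs and 0.921%, 0.406% and 0.383% of the IPs. The files name them by ID only, and no gene name is given here.

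The most abundant, SPMIT.06, went from 248679, 137594 and 166811 normalized counts to 39521, 20716 and 10104 (log2 ratio -3.14, SD 0.78, SE 0.84, limma adjusted p = 0.00303). SPMIT.01 went from 64006, 47302 and 53767 to 20832, 16526 and 6524, and SPMIT.11 from 42281, 32193 and 35028 to 14758, 8767 and 8572. In all 3, the highest IP was below the lowest input. SPMIT.04 fell from 31336, 17774 and 20123 to 8483, 4496 and 3620, and SPMIT.10 from 5171, 6263 and 5926 to 1242, 1132 and 1368. SPMIT.10 was the steadiest, with log2 ratios of -2.06, -2.47 and -2.11.

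The exceptions were SPMIT.07 and SPMIT.08. SPMIT.07 was called lower (log2 ratio -1.15, limma adjusted p = 0.00232), but its log2 ratios of -2.93, 0.22 and -0.74 rest on experiment 1. SPMIT.08 went from 2394, 160 and 229 to 277, 625 and 409, so that it was below input in experiment 1 and above it in experiments 2 and 3 (adjusted p = 0.871, limma). Without experiment 1 it was higher, with a log2 ratio of 1.39, and 4 of the 10 genes were lower. Without experiment 3, 4 of the 10 were lower as well.

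**Figure D3:**
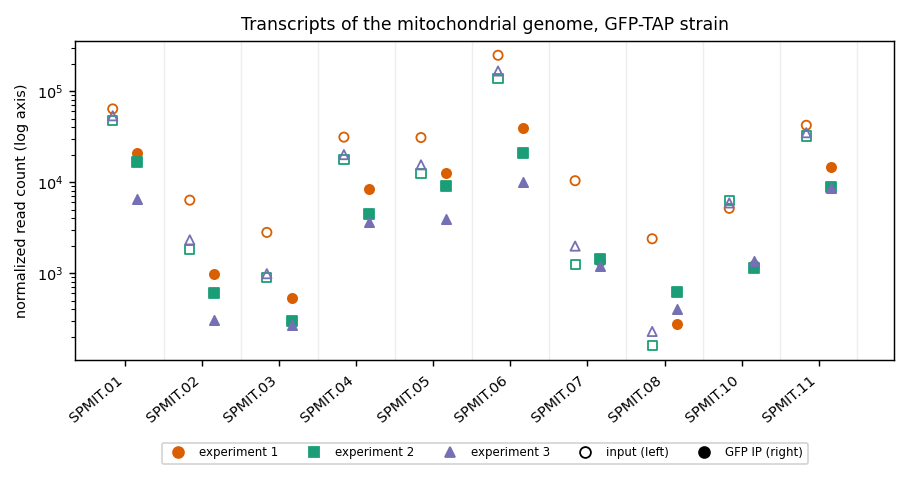
Normalized read counts on a log axis of the 10 mitochondrial transcripts tested, in the 3 inputs (open symbols, left) and the 3 GFP IPs (filled symbols, right). SPMIT.06 falls from 137594 or more to 39521 or less, and SPMIT.07 and SPMIT.08 are the transcripts whose experiments do not all go the same way.

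Nuclear genes for mitochondrial proteins, whose messengers are made in the nucleus and translated in the cytoplasm, moved less. Of 37 genes for the respiratory chain and ATP synthase, 8 were lower and 1 was higher, with a class median relative to all transcripts of -0.69, -0.50 and -0.30. Against protein-coding transcripts of the same length class that median was -0.12, -0.06 and -0.02. Without experiment 1 the count of lower genes was 3, and without experiment 3 it was 1. The gene that rose was qcr2, a core subunit of complex III, from 2116, 2255 and 2123 to 3809, 5782 and 4251 (log2 ratio 1.07, SD 0.26, limma adjusted p = 0.00804). Its IPs lay above all inputs. The most abundant, atp2 (the beta subunit of ATP synthase), was not called (log2 ratio -0.17, adjusted p = 0.842, limma). Among 75 genes for mitochondrial ribosomal proteins, 7 (9.33%) were lower and 0 were higher (1 at an unadjusted p under 0.05, limma), a share close to the background.

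Nuclear rRNA had been depleted before sequencing, so what is left of it also reflects that step. Of 14 rRNA transcripts tested, 12 were lower and 1 was higher. These rows are not independent, since the 5.8S copies SPRRNA.50, SPRRNA.51 and SPRRNA.52 had identical values, as did 3 copies each of 18S and 28S. The 5.8S rows went from 677653, 2522 and 15584 to 47398, 25.4 and 3.41. The 28S copy SPRRNA.47 went from 512426, 3430 and 33653 to 82449, 2844 and 1398. The inputs thus differed among themselves more than input and IP did in experiment 1. With unusual spread kept, 5 of the 14 were lower, and without experiment 3 the count was also 5. SPRRNA.45, annotated as 18S rRNA, had 200679, 28824 and 114828 in the inputs and 23901, 3.48 and 140 in the IPs. The 5S gene SPRRNA.11 was called higher from inputs of 4.11, 0 and 0 and IPs of 0, 333 and 335.

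Protein-coding transcripts held 59.4%, 93.1% and 89.3% of the input totals and 88.9%, 93.0% and 92.7% of the IP totals. Of 4877 protein-coding transcripts tested, 600 were higher (12.3%) and 283 were lower (5.80%). Without experiments 1, 2 and 3 in turn, 387, 268 and 128 were higher and 180, 224 and 45 were lower. The class median was within 0.11 of that of all transcripts in every experiment. Among 140 of the 651 transcripts that were higher and 143 of the 430 that were lower, the change was at least 1 on the log2 scale in each of the 3 experiments. The transcripts that were higher had a median annotated length of 2412 nt and those that were lower of 1250 nt, against 1668 nt over all tested. 

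Long protein-coding transcripts were gained and short ones lost in each experiment. Of 455 transcripts shorter than 750 nt, 1 was higher and 74 were lower, and of 461 transcripts of 3000 to 4000 nt, 128 were higher and 9 were lower. Relative to all transcripts, the median log2 ratio of the shortest class was -0.82, -0.61 and -0.46 in experiments 1 to 3, and that of transcripts of 4000 nt and over was 0.84, 0.38 and 0.26. The classes share libraries and normalization, and transcripts are not replicates, so no p is given. Ratio and length also rose together in the Zfs1 IP. Their Spearman correlation was 0.34, 0.37 and 0.36 there, against 0.62, 0.40 and 0.25 in the GFP IP.

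Transcripts of low GC content were also lost. Below 34% GC, 5 of 337 transcripts were higher and 55 were lower, and from 40 to 42% GC, 81 of 426 were higher and 9 were lower. At 42% GC and over the medians dropped again in all 3 experiments. Among transcripts of 1500 nt and over, the median log2 ratio was 0.10, 0.50 and 0.10 where GC was under 38% and 0.24, 0.89 and 0.34 where it was higher. The same split of shorter transcripts gave -0.78, -0.11 and -0.34 against -0.63, 0.46 and -0.05. The AU-rich nonamer TTATTTATT, the site bound by proteins of the Zfs1 family, was in 78 of 600 transcripts that were higher (13.0%), in 26 of 283 that were lower (9.19%) and in 555 of 4877 tested (11.4%).

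**Figure D4:**
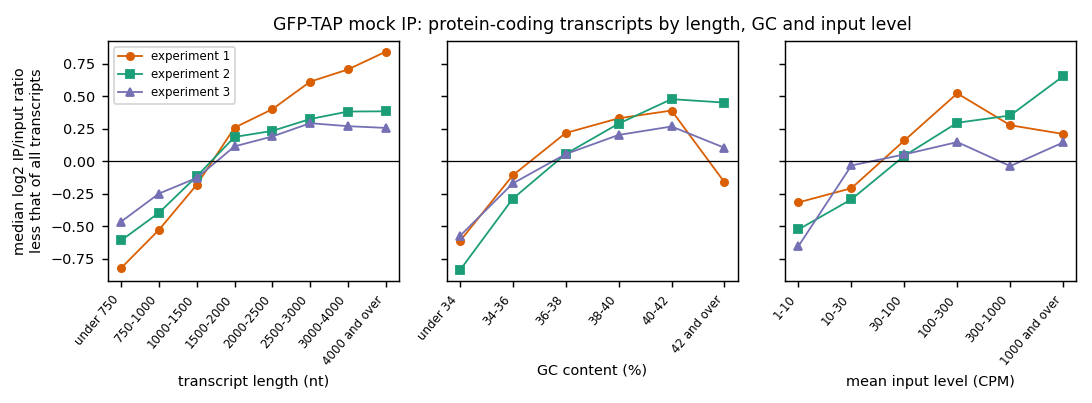
Median log2 IP/input ratio of protein-coding transcripts, less the median of all transcripts tested, by annotated length, GC content and mean input level, with 1 line per experiment. With length, all 3 lines climb from below -0.4 in the shortest class to above 0.25 in the classes from 2500 nt on.

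Core histones and cytosolic ribosomal proteins have short messengers. Core histones are the proteins around which DNA is wrapped. Of 11 tested, 5 were lower and 0 were higher (0 also at an unadjusted p under 0.05, limma). The log2 ratio was below 0 in all 3 experiments for 8 of them, and for 994 of the 4877 protein-coding transcripts tested. Without experiment 1 the count of lower genes was 1, without experiment 2 it was 7 and without experiment 3 it was 0. The lowest was the H4 gene hhf3, from 2382, 1744 and 1725 to 759, 926 and 384 (log2 ratio -1.58, SD 0.63, SE 0.30, limma adjusted p = 1.18e-05). The H4 gene hhf2 went from 1912, 1712 and 1754 to 778, 1226 and 641, and the H3 gene hht3 from 3803, 2847 and 2836 to 1554, 2106 and 1161. In all 3, every IP lay below every input. The H2B gene htb1, the most abundant, was not called (log2 ratio -0.24, adjusted p = 0.686, limma). Against protein-coding transcripts of the same length class, the median of the histones was still -0.44, -0.42 and -0.57. Histone genes are near-identical in sequence, so reads may have been split among the copies.

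Genes for cytosolic ribosomal proteins held 6.33%, 12.2% and 12.2% of the input totals and 4.01%, 9.70% and 9.84% of the IP totals. Of 137 tested, 12 (8.76%, near the background of 7.30%) were lower and 0 were higher (0 also at an unadjusted p under 0.05, limma). The lowest was rpl2701 (60S protein L27), from 3340, 6742 and 7289 to 542, 2849 and 3003 (log2 ratio -1.71, SD 0.79, limma adjusted p = 3.73e-06). The most abundant, rpl301 (60S protein L3), went from 22180, 28317 and 28204 to 27983, 100121 and 44074 and was not called (adjusted p = 0.345). The class median was -0.91, -0.02 and -0.27 relative to all transcripts, and -0.18, 0.56 and 0.14 relative to protein-coding transcripts of the same length. The lower ratio of this class was therefore not seen among transcripts of equal length in experiments 2 and 3, and its count of lower genes ran from 1 without experiment 1 or experiment 3 to 39 without experiment 2 and 38 with equal library totals.

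Genes of glycolysis and fermentation, which break down glucose, had ratios above the median in every experiment. The 17 genes had a median relative to all transcripts of 0.74, 1.18 and 0.57, and 0.76, 1.11 and 0.55 against transcripts of the same length. Of these genes 2 were higher (11.8%, near the background of 11.1%) and 0 were lower (0 also at an unadjusted p under 0.05, limma). Equal library totals gave 5 higher, where 174 of all 5887 transcripts were higher, limma with a robust spread gave 4, and leaving out any 1 experiment gave 1. hxk1 (hexokinase 1) rose from 7265, 5762 and 6101 to 16764, 19049 and 14588 (log2 ratio 1.40, SD 0.29, SE 0.41, limma adjusted p = 0.00845). gpd3 (glyceraldehyde 3-phosphate dehydrogenase) rose from 5587, 2226 and 2934 to 9021, 9513 and 4822. The most abundant members did not pass, and their SEs were large. pdc101 (pyruvate decarboxylase) went from 82090, 98506 and 87152 to 170534, 512797 and 235798, with no overlap, and had a log2 ratio of 1.62 with an SE of 1.35 (SD 0.68, adjusted p = 0.429, and 0.0263 with a robust spread). tdh1, the most abundant messenger, went from 146503, 185393 and 183608 to 194996, 645619 and 272475 (adjusted p = 0.746). As a class, glycolysis went from 4.51%, 8.82% and 7.92% of the input total to 7.38%, 14.4% and 10.7% of the IP total.

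Translation factors and tubulin gave further genes that were higher. Of 52 translation factors, 6 (11.5%, near the background) were higher and 2 were lower. Equal totals without rRNA gave 4 higher and 13 lower, where 207 of all 5887 transcripts were higher and 881 were lower. Without experiments 1, 2 and 3 in turn 1, 2 and 0 were higher. The highest was eft201 (elongation factor 2), from 17357, 16876 and 18196 to 67887, 64855 and 43498, with no overlap (log2 ratio 1.72, SD 0.40, limma adjusted p = 0.0382). tef103 (EF-1 alpha) went from 81207, 86394 and 94915 to 60647, 194182 and 95888 and was not called. Among actin and tubulin, 2 of 5 were higher, atb2 and nda2, both alpha-tubulins, and leaving out experiments 1, 2 and 3 in turn gave 1, 1 and 0. atb2 rose from 2509, 2343 and 2452 to 5437, 7912 and 4296, and nda2 from 3638, 3214 and 3314 to 7842, 6620 and 5443. For both, the lowest IP exceeded the highest input. act1 (actin) had a log2 ratio of 0.71 (SD 0.66, adjusted p = 0.524, limma).

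Ribosome biogenesis genes moved both ways. Of 90 tested, 13 (14.4%) were higher and 11 (12.2%) were lower, and their median was within 0.24 of that of all transcripts. Without experiment 3, 3 were higher and 0 were lower. The highest, sqt1, whose budding yeast counterpart is a chaperone of a ribosomal protein, went from 1314, 1021 and 1123 to 4159, 5772 and 4847 (log2 ratio 2.09, SD 0.42, SE 0.31, limma adjusted p = 1.33e-09). The lowest, llp1, went from 317, 322 and 417 to 135, 105 and 92.6 (log2 ratio -1.66, SD 0.47, limma adjusted p = 0.00303). Inputs and IPs did not overlap for either.

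Meiotic genes whose RNAs are removed in growing cells through the protein Mmi1 had a median of 0.43, 1.31 and 1.32 relative to all transcripts, the highest mean of the classes compared. Of 11 tested, 4 were higher (mcp7, mei4, mug9 and rec8) and 0 were lower (0 also at an unadjusted p under 0.05, limma). mcp7 went from 551, 374 and 494 to 1646, 3748 and 1152, without overlap (log2 ratio 2.04, SD 1.12, limma adjusted p = 4.20e-09). The forkhead transcription factor gene mei4 went from 98.3, 82.6 and 76.3 to 97.2, 358 and 347, and the cohesin gene rec8 from 101, 56.9 and 66.0 to 136, 187 and 282. The first was level in experiment 1. Levels were low, and without experiment 2 or without experiment 3 only 1 of the 11 passed.

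Of 918 long non-coding RNAs, 117 (12.7%) were lower and 38 (4.14%) were higher, with a median of -0.43, -0.75 and -0.48 relative to all transcripts. Where a mean of 10 CPM or more was required, 283 were tested, of which 34 were lower and 32 were higher. Of all 4783 transcripts tested at that limit, 301 were lower and 637 were higher. Without experiment 2, 52 were lower and 13 were higher, and without experiment 3, 27 and 8. The most abundant, SPNCRNA.1234, went from 34888, 36470 and 30253 to 49795, 105905 and 54655 and was not called (adjusted p = 0.394, limma). It spans nmt1 on the opposite strand, which had 85610, 113490 and 93902 normalized counts in the inputs. The part that the opposite strand had in its values was not tested. SPNCRNA.491 was called higher, but 93.6% of it is shared with SPNCRNA.1189 on the same strand, so its reads cannot be assigned with certainty.

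Some of the most extreme ratios came from 6 transcripts at or near 0 on one side, each of which lies opposite another transcript. mrp20 (a mitochondrial ribosomal protein), shf1 and dhd1 had inputs between 79.3 and 448 normalized counts and were listed at 0 in all 3 IPs, as was the non-coding SPNCRNA.1687, with inputs of 649, 86.6 and 254. SPNCRNA.1214 had 659, 605 and 741 in the inputs and at most 0.203 in the IPs. uga1 (GABA transaminase) was the reverse, with at most 0.0402 in the inputs and 136, 386 and 329 in the IPs. No fold of IP over input is given for these, since a fitted value depends on the pseudocount. In all 3 Zfs1 IPs mrp20 and dhd1 were also listed at 0. There shf1, SPNCRNA.1687, SPNCRNA.1214 and uga1 had between 69.2 and 2111 normalized counts. Each of the 6 overlaps a transcript of the opposite strand over 85.6% to 100% of its span. The partners were present in both fractions. Opposite mrp20, apm4 had 707, 506 and 541 in the inputs and 1999, 1737 and 1327 in the IPs. Opposite SPNCRNA.1214, trm44 had 1128, 873 and 746 and then 1223, 1867 and 1765. Such an overlap of at least 50% was found for 10 of the 10 protein-coding transcripts with the lowest ratios, for 6 of the 10 with the highest, and for 27.3% of all tested. It was found for 51.2% of the transcripts that were lower and 21.1% of those that were higher. Among the 4231 annotated transcripts without it, 513 (12.1%) were higher and 201 (4.75%) were lower. The part that the opposite strand had in these values was not tested.

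The other extreme ratios also differed between experiments. SPAC8C9.04 went from 0, 1913 and 1433 to 653, 5324 and 2743, so that its log2 ratio of 3.92 (SD 4.71, SE 0.33) rests on the input listed at 0 in experiment 1. spt16, a subunit of the histone chaperone FACT, went from 1301, 72.4 and 148 to 4070, 1703 and 1949. gud1 and fta7 were called with SDs of 2.67 and 2.52. With unusual spread kept, the calls of SPAC8C9.04, gud1, fta7 and qrs1 were lost (adjusted p = 0.486, 0.368, 0.350 and 0.322, limma). gut2 was called with IPs of 437, 469 and 3.27. Values were steadier for rod1, taf2, psd2 and psd3. rod1 (an arrestin) went from 821, 515 and 500 to 3973, 3386 and 2669 (log2 ratio 2.47, SD 0.23, SE 0.30, limma adjusted p = 5.28e-14). taf2, a subunit of the general transcription factor TFIID, went from 1554, 1245 and 1201 to 8698, 5053 and 4338. psd2 and psd3, phosphatidylserine decarboxylases, had log2 ratios of 2.10 (SD 0.44) and 2.32 (SD 0.29). In all 4, every IP lay above every input. They were named for high ratios of 1 sign in all 3 experiments, a choice that favours such a lack of overlap. On the low side, dfg502, qrs1, smf1, spc1, whi2 and gos1 each had an IP library at 2.85 to 4.31 normalized counts beside others of 50.2 to 264, except that dfg502 had 2 such libraries. cdc37, an Hsp90 cochaperone, was lower in each experiment, from 710, 455 and 467 to 220, 58.7 and 101 (log2 ratio -2.27, SD 0.63, limma adjusted p = 4.04e-06).

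The mock IP ratio was compared with the Zfs1 IP ratio over all 12 RIP-Seq libraries to see whether classes behaved alike with another bait. The GFP ratio was above the Zfs1 ratio for 671 of 5933 transcripts (11.3%) and below it for 585 (9.86%). No library is shared between the 2 ratios. These counts followed the scaling, and equal library totals gave 103 above and 1016 below. rRNA made up 72.1% of the Zfs1 input of experiment 1, and without experiment 3 the counts were 37 and 38. Relative to all transcripts, the median of the mitochondrial genome was -1.98 in the GFP IP and 2.52 in the Zfs1 IP, as a mean over experiments, and 7 of its 10 transcripts were below. The other 3 did not differ past the threshold. They were SPMIT.06, which was lower in both IPs (log2 ratio -3.14 with GFP and -2.74 with Zfs1, limma adjusted p = 0.00143 for the latter), SPMIT.10 (-2.21 and -1.76) and SPMIT.05 (-1.23 and -0.18). Structured RNAs did the reverse, with 4 of 4 (7SL, ter1, mrp1 and rrk1) and 16 of 24 snoRNAs above and 0 below in either list. Of 137 cytosolic ribosomal protein genes 89 were above and 0 below, since they fell much further in the Zfs1 IP, with medians between -2.42 and -1.64 over its experiments, against -0.91 to -0.02 in the GFP IP. Glycolysis had 10 of 17 above and 1 below, and translation factors 20 of 52 above and 0 below. Core histones had medians of -0.75 in the GFP IP and 0.36 in the Zfs1 IP, and 3 of 11 were below. The snRNAs were on the low side in both IPs, with medians of -1.55 and -1.89, and 1 of 3 differed. Mmi1-type meiotic genes were on the high side in both, with medians of 1.02 and 2.93, and 4 of 11 were below. The strains also differ in mating type, in leu1 and in how the tag is expressed, and these cannot be told apart from the bait.

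**Figure D5:**
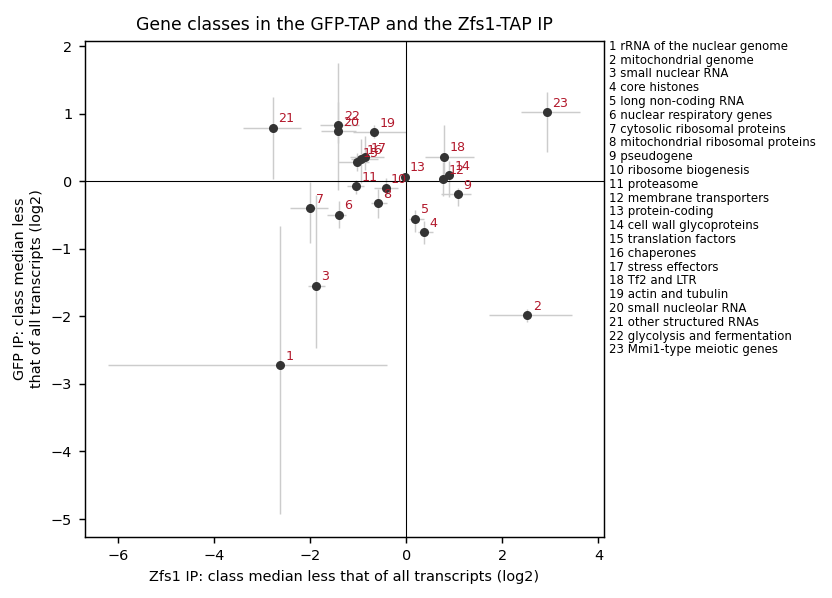
Class median log2 IP/input ratio less that of all transcripts in the GFP IP (vertical) against the Zfs1 IP (horizontal). Points are means over 3 experiments and bars run from the lowest to the highest experiment. The mitochondrial genome lies at -1.98 and 2.52, in the lower right, and the Mmi1-type meiotic genes at 1.02 and 2.93, in the upper right.

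The genes of the construct and of the study's bait were followed in the mock IP. nmt1, whose promoter and terminator flank gfp-TAP, had 85610, 113490 and 93902 normalized counts in the inputs and 98112, 221119 and 115046 in the IPs (log2 ratio 0.48, SD 0.42, adjusted p = 0.816, limma). The marker ura4 went from 1181, 963 and 1032 to 981, 1969 and 1054. leu1, which the genotype gives as deleted, had 430, 460 and 478 in the inputs and 170, 601 and 228 in the IPs. These inputs were far below those of the Zfs1-TAP strain, which had 11183, 5388 and 5356. How much of the gene the construct removes is not given in the sources used here. Among genes for which the study assayed Zfs1 binding, puc1 (a G1 cyclin) went from 414, 208 and 170 to 445, 210 and 280, and arz1 from 537, 360 and 317 to 550, 326 and 268. ecl3 went from 66.1, 26.7 and 26.9 to between 8.27 and 39.5. None of these 3 was called (adjusted p = 0.679, 0.865 and 0.511, limma). cbf12, a transcription factor gene, was higher, from 625, 211 and 176 to 749, 418 and 708 (log2 ratio 1.08, SD 0.87, limma adjusted p = 0.0200). Its ratio grew from 0.26 in experiment 1 to 2.00 in experiment 3. For all 4 the GFP ratio was below the Zfs1 ratio, by 3.47 to 5.98 on the log2 scale.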

How the data were processed

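The deposited table held, for 7018 transcripts, read counts that the authors estimated with RSEM 1.1.19 (Bowtie 0.12.7) on the PomBase annotation and normalized with edgeR, per the study's methods and the submitters' processing notes. These deposited values are a normalized signal and not whole reads, so count models were not used and the depth is unknown. Reads were paired-end and strand-specific, from RNA depleted of rRNA. Values below 1e-10 were set to 0. Of the 7018 rows, 6843 matched the RefSeq annotation (ASM294v3) by locus tag, which gave lengths, GC content and sequences, and 26 rows were in no class. The table of the series' other RNA-Seq libraries was not used here.

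The 3 GFP IP and 3 input libraries were fitted with limma 3.58.1 in R 4.3.3 (lmFit and eBayes with trend) on log2(normalized count + 1), for transcripts whose mean reached 1 CPM. The experiment was the block, and p-values were adjusted after Benjamini and Hochberg, with calls at 0.05. The block follows the paired experiments of the study. Fold changes of low transcripts are understated by the pseudocount of 1. The contrast with Zfs1 used all 12 RIP-Seq libraries with a block for each strain and experiment. Gene classes and transcript features were described without a test.

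Named are the 10 protein-coding and 5 other transcripts with the highest and the lowest ratio among those called with 1 sign in all 3 experiments and a mean of at least 20 CPM. Named too are the highest, lowest and most abundant member of each class, and the genes of the strain and bait. Further class members were named after their values were seen. The libraries and gene lists were chosen with earlier results of these data known. Alternatives were other scalings, pseudocounts of 0.5 and 5, no filter or 10 CPM, no trend, no block and leaving out each experiment. Summing overlapping transcripts, totals without rRNA and limma with a robust spread were added after seeing the data.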

Additional observations from a re-analysis of the deposited data

Results flagged for a closer look

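The ratio in the GFP mock IP differed from that in the Zfs1 IP, by limma's test of the contrast over 12 libraries, for 46 of the transcripts named. Many were named for an extreme GFP ratio, which is part of this contrast, so the choice itself favours a difference. Over all 5933 transcripts, 671 (11.3%) were above and 585 (9.86%) were below. Values here are the GFP log2 ratio less the Zfs1 log2 ratio. For uga1, shf1, SPNCRNA.1214 and SPNCRNA.1687 a whole GFP group lies at or near 0, and for SPAC8C9.04, gut2 and SPRRNA.45 single GFP or Zfs1 libraries are listed at 0, so these values depend on the pseudocount and are neither folds nor bounds. All follow the scaling, which equal library totals shifted towards lower GFP ratios.

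Among structured RNAs the GFP ratio was above the Zfs1 ratio by 8.59 for sno20, 6.88 for srp7, 5.71 for rrk1, 4.86 for snR30, 3.98 for snu3, 3.89 for snu32 and 2.67 for snR98. The last was lower than its input in the GFP IP and still further below it with Zfs1. The non-coding SPNCRNA.491 and SPNCRNA.1234 differed by 5.40 and 2.88.

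Of the protein-coding genes named as the highest, lowest or most abundant of a class, the GFP ratio was above by 3.50 for tdh1, 3.30 for pdc101, 3.23 for rpl301, 2.37 for rpl2701, 3.02 for eft201, 2.30 for sqt1, 2.85 for cct6, 2.54 for qcr2, 2.33 for atb2 and 2.38 for act1. The thiamine pyrophosphate transporter gene SPBC1604.04 differed by 2.98 and nmt1, of thiamine synthesis, by 2.94. Extreme protein-coding transcripts that were above were uga1 at 6.88, SPAC8C9.04 at 7.75, gut2 at 5.51, fta7 at 4.76, gud1 at 3.58, psd3 at 2.95 and taf2 at 1.99.

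The GFP ratio was below the Zfs1 ratio for zfs1 at -2.07, puc1 at -3.84, cbf12 at -3.47, ecl3 at -5.98 and arz1 at -5.24. It was also below for the cell surface glycoprotein gene pfl7 at -4.35, the meiotic gene mug9 at -3.61 and the pseudogene SPCC188.10c at -1.96. Of the most extreme transcripts, shf1 stood at -9.61, dfg502 at -6.67, whi2 at -5.54, SPNCRNA.1214 at -8.44 and SPNCRNA.1687 at -8.44. SPRRNA.45 stood at -6.47, the identical 5.8S rows SPRRNA.50, SPRRNA.51 and SPRRNA.52 at -3.73, and SPMIT.08 at -2.29.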

How the results depend on the processing

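Counts of higher and lower transcripts (651 and 430) depended on the scaling and on the model. Equal library totals gave 174 and 313, median-centred libraries 602 and 231, and totals without rRNA 207 and 881. No filter on low values gave 409 and 205, limma without the trend 2 and 10, and no replicate block 117 and 30. Leaving out an experiment gave 142 to 466 higher and 86 to 304 lower. For the contrast with Zfs1 (671 above and 585 below), equal totals gave 103 and 1016, median-centred libraries 1580 and 1206, totals without rRNA 1189 and 1437, and no trend 215 above. Leaving out an experiment gave 37 to 903 above and 38 to 1147 below. The median of all fitted ratios was -0.01, and -0.27, -0.05 and -0.47 under the 3 scalings in the order given first. The causes were not tested.

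Class medians less that of all transcripts moved by more than their SD over experiments in 5 cases, all under a changed filter. That of the mitochondrial genome was -1.86 without a filter. At 10 CPM it was -2.08, long non-coding RNAs stood at -0.25, protein-coding transcripts at 0.015 and actin and tubulin at 0.63. Nuclear rRNA, whose experiments differ most, went from -2.72 to -0.81 without a filter. SPMIT.08 ran from -1.14 to 1.39 as experiments were left out, the pseudogene SPBPB21E7.08 from -2.64 to 0.079, and the identical 18S rows SPRRNA.43, SPRRNA.44 and SPRRNA.46 from -4.16 to 0.26. Pseudocounts of 0.5 and 5 and summed overlapping transcripts left the counts within 1.5 times.

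Input and IP of the same experiment deviated together (r = 0.279, 0.226 and 0.098), each library most with its own number. Other pairs gave -0.260 to 0.067. Deviations were taken from the mean of 3 libraries, which by itself pushes other pairs down where same pairs are positive. In experiment 3 the r of 0.098 was close to the 0.067 and 0.060 of its pairs with experiment 2, so its pairing is not shown by this. With a residual of 2 degrees of freedom, single transcripts with a large SD over experiments are the least certain.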

Other observations

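In further gene groups the calls went both ways. Among 11 stress effectors, 4 were higher (36.4%, against 11.1% of all transcripts) and 2 were lower (18.2%, against 7.30%). Equal library totals gave 1 and 3, where 174 of all 5887 transcripts were higher and 313 were lower. Without experiments 1, 2 and 3 in turn, 1, 0 and 0 were higher and 1, 3 and 1 were lower. The genes that rose make glycerol (gpd1, log2 ratio 1.27, limma adjusted p = 0.0391), break down peroxide (ctt1, catalase, 1.03, adjusted p = 0.00767), and make and break down trehalose (tps1, 0.96, and ntp1, 0.97). The genes that fell were grx1 (glutaredoxin), from 2522, 2471 and 2206 to 762, 1112 and 683 normalized counts, and hsp16, from 1266, 496 and 371 to 498, 457 and 117. grx1 had no overlap between IP and input, and its log2 ratio was -1.52 (SD 0.32).

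Of 43 cell wall and surface genes 7 (16.3%) were higher and 1 (2.33%) was lower. Totals without rRNA gave 5 and 7, where 207 of all 5887 transcripts were higher and 881 were lower. The highest, smi1 (an adaptor of beta-glucan synthesis), went from 1754, 1474 and 1458 to 5008, 5597 and 4171. Of 36 proteasome genes 2 (5.56%) were higher and 2 (5.56%) were lower. Among them were rpn2, of the regulatory particle, at 0.97 and pre1, of the core particle, at -1.41. Among Tf2 retrotransposons, which are near-identical copies whose reads may have been split, Tf2-11 went from 327, 302 and 306 to 830, 1538 and 912, while Tf2-1 had inputs of 441, 0.577 and 326 and IPs of 2.28 or less.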
